A study of Mus musculus with 6 samples.

Results

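Cell surface genes that are used, or have been proposed, for sorting spermatogonia were followed in germ cells of Dnmt3A KO/KO and WT/WT mice: Thy1, Cd9, Cd24a, Epcam, Mcam, Cd82, Cd81, Cxcr4 and the lymphocyte gene Cd2. These 9 were taken by symbol from 54087 gene rows, and all 9 passed the filter on low counts that left 21314 genes. Of the 9, 8 serve in sorting, whereas Cd2 was chosen by its measured rise in KO/KO over WT/WT libraries, so its values are given as a description without a test. The libraries came from 3 Dnmt3A KO/KO and 3 Dnmt3A WT/WT samples of male C57BL/6 mice aged 10 days. Both genotypes carried an Id4-GFP reporter, and the cells were the bright and medium GFP germ cells, which the labels equate roughly with spermatogonial stem cells. The labels do not state how the KO allele was made, in which tissues the gene was deleted, or whether animals were pooled. They number the samples without saying that separate animals were used. The p-values therefore measure a spread between libraries that may be technical.

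Spermatogonial stem cells renew themselves on the wall of the testis tubule and are rare, so they are usually enriched with antibodies to surface proteins before transplantation or culture. Thy1, a small glycolipid-anchored immunoglobulin protein, and the tetraspanin Cd9 are established positive markers in mouse testis, and the epithelial adhesion molecule Epcam and the glycolipid-anchored Cd24a mark undifferentiated and wider germ cell fractions. Mcam is an immunoglobulin adhesion molecule also known from endothelial cells and pericytes. Cd81 and Cd82 are tetraspanins, which organise integrins and other receptors in the membrane, and Cxcr4 is the receptor through which germ cells respond to the chemokine Cxcl12. Dnmt3A adds methyl groups to cytosines in CG dinucleotides of unmethylated DNA.

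The promoter windows of Cd9 and Mcam, the 2 genes called higher, are shown beside that of Epcam, whose libraries overlapped between genotypes, because CG dinucleotides are the substrate of Dnmt3A. Each window runs from 250 bases before to 50 bases after an annotated start (RefSeq, GRCm38.p6, 5′ to 3′ on the gene's strand), and capitals mark every CG. They lie at chr6:125494711-125495010 (minus strand), chr9:44134408-44134707 (plus strand) and chr17:87635729-87636028 (plus strand).
Cd9: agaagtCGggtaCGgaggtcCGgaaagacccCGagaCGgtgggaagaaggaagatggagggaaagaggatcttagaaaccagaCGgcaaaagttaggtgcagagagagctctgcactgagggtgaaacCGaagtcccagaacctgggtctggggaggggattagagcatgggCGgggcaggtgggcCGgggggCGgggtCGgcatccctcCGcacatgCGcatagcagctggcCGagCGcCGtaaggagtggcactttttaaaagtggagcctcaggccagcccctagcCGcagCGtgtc
Mcam: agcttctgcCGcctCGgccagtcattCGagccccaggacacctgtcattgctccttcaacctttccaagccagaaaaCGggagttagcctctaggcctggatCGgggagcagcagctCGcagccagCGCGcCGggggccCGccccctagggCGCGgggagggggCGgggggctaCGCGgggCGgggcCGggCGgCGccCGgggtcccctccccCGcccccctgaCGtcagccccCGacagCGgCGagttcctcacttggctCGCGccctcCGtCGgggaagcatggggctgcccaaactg
Epcam: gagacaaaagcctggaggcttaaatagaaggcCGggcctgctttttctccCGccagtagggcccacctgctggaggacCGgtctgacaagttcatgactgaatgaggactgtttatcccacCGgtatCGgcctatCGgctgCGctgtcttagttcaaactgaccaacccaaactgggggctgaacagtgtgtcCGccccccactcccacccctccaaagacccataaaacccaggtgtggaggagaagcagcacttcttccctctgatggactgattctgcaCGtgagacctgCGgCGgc
The Cd9 window holds 18 CG dinucleotides, the Mcam window 29 and the Epcam window 11. Among 32851 windows of 300 bases the median was 7, and 29.7% held at least as many as Cd9, 12.9% at least as many as Mcam and 41.4% at least as many as Epcam. The windows of Cd81 and Cxcr4 hold 23 and 20, and the 4 windows of Cd82 hold 16, 15, 11 and 4. Like Epcam, these genes did not pass the test, although the windows of Cd81 and Cxcr4 hold more CG than that of Cd9. Windows for 6 of the 9 genes were in the table used, and those of Thy1, Cd24a and Cd2 were not among them. DNA methylation was not measured in these files.

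Reads counted on genes summed to between 43951664 and 61749155 in KO/KO libraries and to between 42681201 and 48423509 in WT/WT libraries. Levels are given as CPM, gene counts scaled to a common library size by the TMM method and expressed per 1e+06. The targeted gene Dnmt3a stood at 90.2, 104 and 99.5 CPM in KO/KO and at 215, 193 and 188 CPM in WT/WT, with no overlap (log2 fold change -1.02, SE 0.09, edgeR adjusted p = 0.000222). Germ cell genes were abundant, with Ddx4 at 437 ± 32.6 CPM in KO/KO and 369 ± 10.2 CPM in WT/WT (SD, n = 3 each). Id4, whose reporter set the gate, was itself higher in KO/KO, at 86.7, 176 and 159 CPM against 36.9, 38.0 and 38.4 CPM in WT/WT, and the part of the gate in the differences below was not tested. In the spread of counts over all genes, KO/KO replicate 1 differed from the other KO/KO libraries (chi-square per degree of freedom 36.3 and 37.1) about as much as from the WT/WT libraries (34.5 to 35.4). In bulk samples of this kind, fewer cells of a type and less RNA per cell cannot be told apart.

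Of the 8 genes with a test, Cd9 and Mcam rose in KO/KO and the other 6 did not pass (quasi-likelihood F test of edgeR, with p adjusted over all genes by Benjamini-Hochberg and a threshold of 0.05, n = 3 per genotype). None was lower, by edgeR, at an unadjusted p under 0.05 (0 lower), by DESeq2 (0 lower) or by limma-voom (0 lower). Over all genes tested 8.33% were called higher and 6.42% lower, shares that also stand beside the counts for gene lists below. The log2 fold changes of the 8 lay between -0.13 and 0.47, with a median of 0.12, against 0.003 for all genes tested. Cd9 and Mcam were also the only 2 of the 8 whose genotypes did not overlap, a state shared by 35.8% of all genes tested. The percentages describe the whole table and support nothing about these genes, which were chosen with results of this comparison known.

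**Figure D1:**
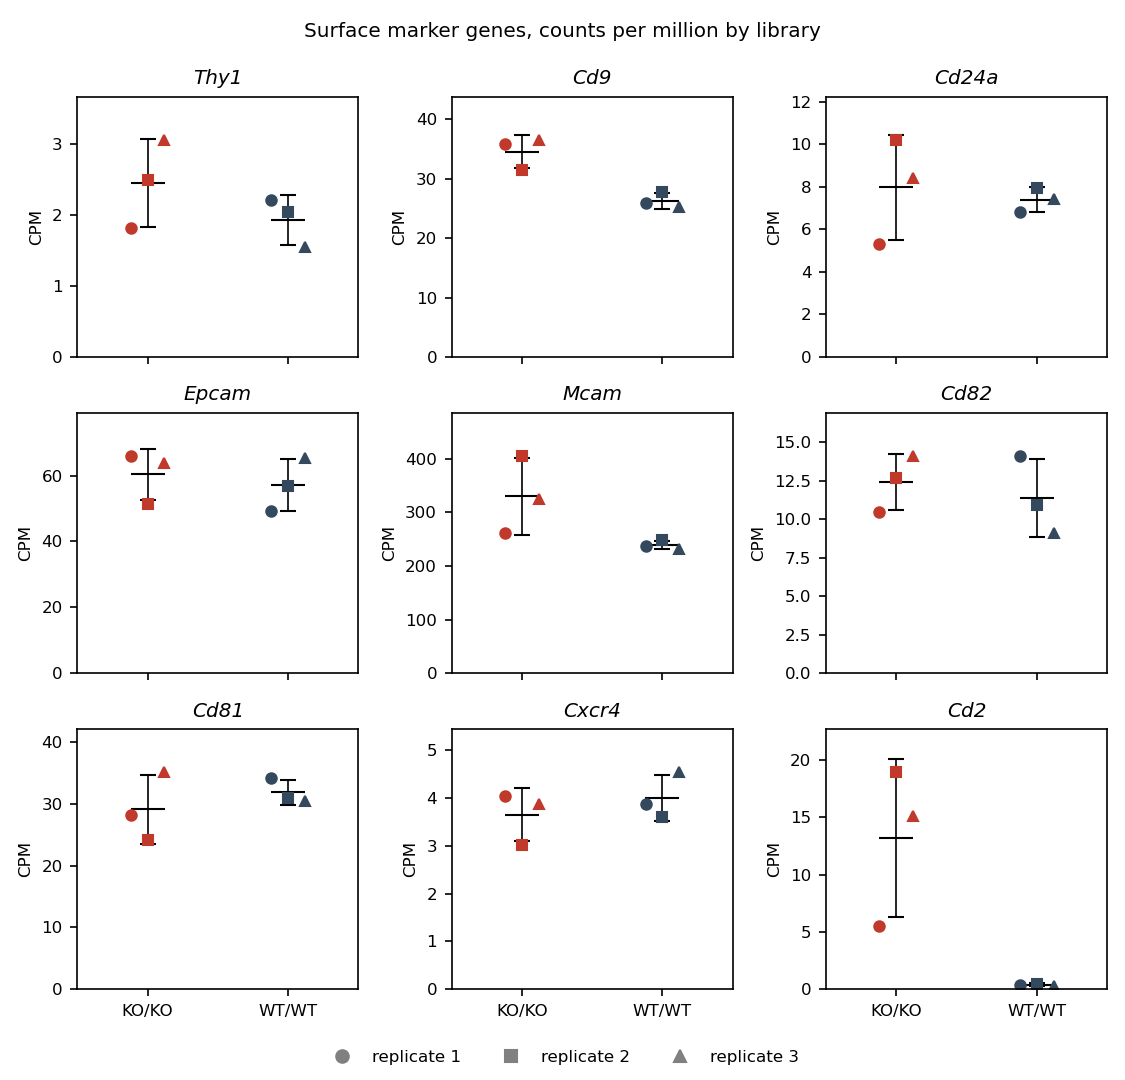
CPM of the 9 genes in each library, KO/KO left and WT/WT right in every panel, with symbols for the replicate number and a bar with the mean and SD (n = 3). Each axis starts at 0; the genotypes stand apart for Cd9, Mcam and Cd2 and overlap for the other 6.

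Cd9, the tetraspanin used to enrich stem cells from mouse and rat testis, was higher in every KO/KO library. It stood at 35.8, 31.4 and 36.5 CPM in KO/KO and at 25.9, 27.7 and 25.2 CPM in WT/WT. The lowest KO/KO library, replicate 2, lay above the highest WT/WT library, replicate 2. The fold change was 1.32 (log2 0.40, 95% interval 0.16 to 0.63, edgeR adjusted p = 0.0334). The call was kept without KO/KO replicate 2 (adjusted p = 0.0168) and lost without any other single library, controls included (edgeR adjusted p between 0.0608 and 0.133), although the log2 fold change stayed between 0.36 and 0.46. On the opposite strand, exons of Gm26728 cover 10.7% of the exon bases of Cd9. Without a stated strand setting, reads of these genes cannot be told apart.

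The other tetraspanins among the sorting markers did not pass the test. Cd81, a partner of integrins and immunoglobulin proteins, had 28.2, 24.1 and 35.1 CPM in KO/KO and 34.2, 31.0 and 30.5 CPM in WT/WT. KO/KO replicate 3 was the highest of all 6 libraries and the other 2 KO/KO libraries were the lowest. The log2 fold change was -0.13 (95% interval -0.44 to 0.19, edgeR adjusted p = 0.595), so the interval leaves room for a fold between 0.736 and 1.14. Cd82, known as a suppressor of cell migration, had 10.5, 12.7 and 14.1 CPM in KO/KO and 14.1, 10.9 and 9.12 CPM in WT/WT. Its genotypes overlapped over nearly their whole range, with a log2 fold change of 0.13 (95% interval -0.28 to 0.55, edgeR adjusted p = 0.687).

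Among tetraspanin genes outside the marker set, 1 of 22 tested rose and 21 did not pass. That gene was Tspan8, itself a surface marker of stem spermatogonia in mice, with 5.29, 11.0 and 7.78 CPM in KO/KO and 3.70, 3.72 and 2.16 CPM in WT/WT (log2 fold change 1.33, SE 0.30, edgeR adjusted p = 0.0172). Leaving out WT/WT replicate 2 or 3 removed its call (edgeR adjusted p between 0.0516 and 0.0661) and left 0 higher. In place of 0 lower there was 1 without KO/KO replicate 1, KO/KO replicate 2 or WT/WT replicate 1. There were 2 without KO/KO replicate 3. With RLE factors, DESeq2 or a minimum of 1 CPM in 3 samples 1 was lower, and with no filter on low counts 2. Tspan18 lay just outside the threshold (log2 fold change -0.80, SE 0.24, edgeR adjusted p = 0.0503). It had 3.89, 3.55 and 5.40 CPM in KO/KO and 9.63, 6.75 and 6.01 CPM in WT/WT, with no overlap. The median log2 fold change of the 22 was 0.01. Abundant members such as Tspan3 (56.7 ± 3.07 CPM in KO/KO and 56.7 ± 1.92 CPM in WT/WT) and Cd151 (30.2 ± 1.75 and 30.0 ± 1.02 CPM in the same order) overlapped.

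Among genes for proteins that tetraspanins bind, 5 of 18 tested rose, 2 fell and 11 did not pass, with a median log2 fold change of 0.08. The fibronectin receptor subunit Itga5 had 19.5, 24.3 and 24.8 CPM in KO/KO and 2.74, 2.89 and 3.21 CPM in WT/WT, with no overlap (log2 fold change 2.96, SE 0.16, edgeR adjusted p = 2.26e-05). Moesin (Msn), which links membrane proteins to actin, rose by 0.78 on the log2 scale (SE 0.14, edgeR adjusted p = 0.00539). Of the related genes in the list, Rdx fell (log2 fold change -0.37, SE 0.07, edgeR adjusted p = 0.0103). Ezr did not pass (log2 fold change 0.09, edgeR adjusted p = 0.648). Ifitm3, an interferon-induced membrane protein, rose at low counts, with 23, 13 and 37 reads in KO/KO and 1, 2 and 2 in WT/WT. Igsf8, an immunoglobulin partner of Cd9 and Cd81, fell to 11.6, 7.40 and 10.4 CPM in KO/KO, against 17.0, 19.0 and 18.2 CPM in WT/WT (log2 fold change -0.88, SE 0.17, edgeR adjusted p = 0.00886). Epcam belongs to this list as well and did not pass. Leaving out WT/WT replicate 2 gave 2 rises in the list and leaving out WT/WT replicate 3 gave 3, with 1 lower without WT/WT replicate 1 or 3, with Ifitm3 losing its call without WT/WT replicate 2 (edgeR adjusted p = 0.0523).

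Mcam was the most abundant of the 9 genes and the second to pass the test. It had 261, 405 and 325 CPM in KO/KO and 238, 248 and 232 CPM in WT/WT. KO/KO replicate 1 lay just above the WT/WT libraries and replicate 2 far above them, and the SD was 71.9 CPM in KO/KO against 8.17 CPM in WT/WT. The fold change was 1.38 (log2 0.47, 95% interval 0.17 to 0.77, edgeR adjusted p = 0.0451). The call was kept without KO/KO replicate 1 (log2 0.62, adjusted p = 0.00651) and lost without KO/KO replicate 2 (log2 0.30, adjusted p = 0.0644), KO/KO replicate 3 or any WT/WT replicate (edgeR adjusted p between 0.0711 and 0.147). It was lost with limma-voom too (adjusted p = 0.0551).

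Mcam is best known from endothelial cells and pericytes among somatic cells. Of 13 markers of these cells tested 6 rose and 7 did not pass, and the median log2 fold change was 0.74. Their summed level was between 137 and 179 CPM in KO/KO and between 46.2 and 54.3 CPM in WT/WT. The junction cadherin Cdh5 accounted for 38.7, 68.3 and 48.0 CPM of it in KO/KO and 7.03, 7.25 and 5.32 CPM in WT/WT (log2 fold change 2.98, SE 0.22, edgeR adjusted p = 0.000135). Flt1 and Vwf also rose, with log2 fold changes of 1.69 and 2.60 (edgeR adjusted p = 0.000143 and 0.000152). Pecam1, a defining endothelial gene, overlapped, at 5.23, 3.77 and 3.12 CPM in KO/KO and 3.24, 4.88 and 2.7 CPM in WT/WT. The part of these cells in the rise of Mcam was not tested. Of the 18 genes listed, those outside the 13 had too few reads for a test. Emcn, for instance, had 1, 0 and 0 reads in KO/KO and 6, 3 and 0 in WT/WT. Kcnj8 had 2, 0 and 0 reads in KO/KO and 0 in each WT/WT library. None of the 18 was at 0 in all 6 libraries.

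**Figure D2:**
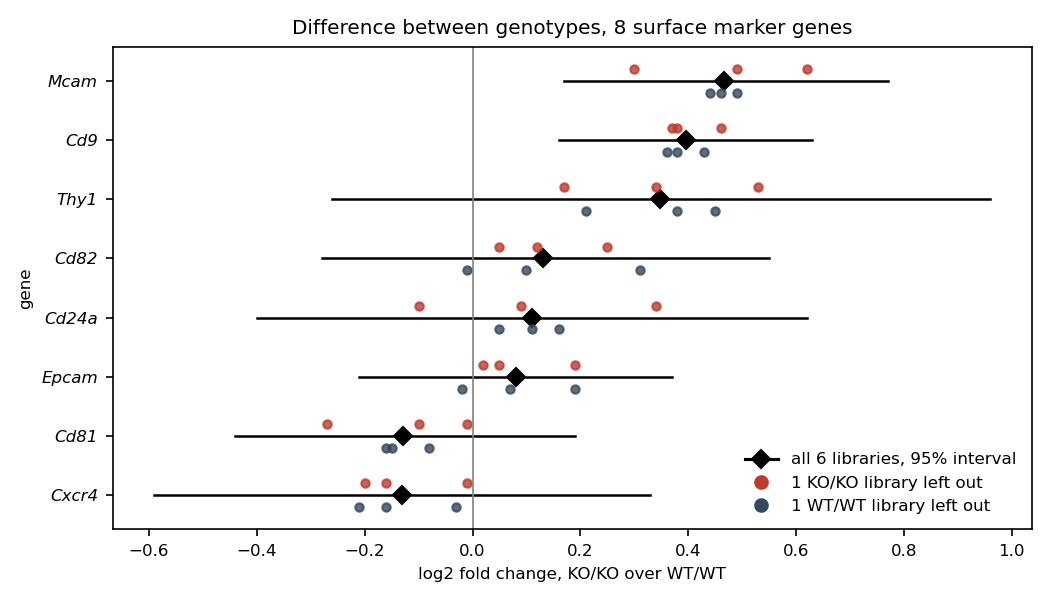
Log2 fold change of KO/KO over WT/WT for the 8 genes with a test: diamonds with lines are the estimate and 95% interval from all 6 libraries, circles the estimates with 1 KO/KO library (above the line) or 1 WT/WT library (below it) left out. The intervals of Mcam and Cd9 lie above 0, and those of the other 6 include 0.

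Thy1, the marker most often used to enrich stem cells from mouse testis, was among the lowest of the set. It had 1.81, 2.49 and 3.05 CPM in KO/KO, from 81, 123 and 197 reads, and 2.21, 2.04 and 1.54 CPM in WT/WT, from 97, 98 and 63 reads. KO/KO replicate 1 fell inside the WT/WT range and the other 2 KO/KO libraries above it. The log2 fold change was 0.35 (95% interval -0.26 to 0.96, edgeR adjusted p = 0.441), which covers folds between 0.833 and 1.94. Thy1 lies 85.9 kb from Mcam on chromosome 9.

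Other genes for glycolipid-anchored surface proteins gave 2 rises and 2 falls among 15 tested, and 11 did not pass. Lynx1, a Ly6 family protein that acts on nicotinic receptors, fell to 1.5, 0.689 and 0.899 CPM in KO/KO, against 3.72, 2.93 and 3.21 CPM in WT/WT (log2 fold change -1.68, SE 0.31, edgeR adjusted p = 0.00714). Gfra2, the neurturin co-receptor, was at 2.55, 14.7 and 12.9 CPM in KO/KO and 2.40, 2.91 and 2.03 CPM in WT/WT, so that KO/KO replicate 1 lay within the WT/WT range (log2 fold change 2.04, SE 0.52, edgeR adjusted p = 0.0275). The call of Gfra2 was lost without each single library other than KO/KO replicate 1 (edgeR adjusted p between 0.0553 and 0.106). Leaving out any 1 library gave between 0 and 2 rises and between 1 and 2 falls in this list. The falls were 1 without KO/KO replicate 1 or 3 or any WT/WT replicate. The rises were 0 without KO/KO replicate 2 or WT/WT replicate 2 or 3, and 1 without KO/KO replicate 3 or WT/WT replicate 1. Lypd1, another fall (adjusted p = 0.0403), lost its call without any 1 library (edgeR adjusted p between 0.0567 and 0.184).

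Epcam, the adhesion molecule that marks germ cells among testis cells, did not pass. It had 65.9, 51.5 and 63.8 CPM in KO/KO and 49.3, 56.8 and 65.3 CPM in WT/WT, and the libraries of both genotypes were interleaved. The log2 fold change was 0.08 (95% interval -0.21 to 0.37, edgeR adjusted p = 0.726), so a fold above 1.29 or below 0.866 lies outside the interval. Cd24a, a mucin-like glycolipid-anchored protein, had 5.32, 10.2 and 8.44 CPM in KO/KO and 6.80, 7.97 and 7.45 CPM in WT/WT. KO/KO replicate 1 was the lowest of the 6 libraries and replicate 2 the highest. Its log2 fold change was 0.11 (95% interval -0.40 to 0.62, edgeR adjusted p = 0.792), and reads from processed copies of Cd24a elsewhere in the genome could not be separated from its count.

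Genes listed as partners of Epcam and Mcam gave 5 rises among 13 tested, 8 that did not pass and a median log2 fold change of 0.05. E-cadherin (Cdh1), which holds undifferentiated spermatogonia together, had 34.5, 40.9 and 38.1 CPM in KO/KO and 19.4, 20.5 and 17.2 CPM in WT/WT (log2 fold change 0.99, SE 0.12, edgeR adjusted p = 0.000861). Kdr, a VEGF receptor for which Mcam is a co-receptor, had 20.6, 30.2 and 31.7 CPM in KO/KO and 8.81, 9.08 and 7.55 CPM in WT/WT (log2 fold change 1.70, SE 0.18, edgeR adjusted p = 0.000538). The claudin Cldn4 was at 1.11 ± 0.205 CPM in KO/KO and 0.216 ± 0.05 CPM in WT/WT (SD, n = 3 each). Ctnnb1, the catenin bound by E-cadherin, stood at 304 ± 15.6 CPM in KO/KO and 293 ± 4.13 CPM in WT/WT and did not pass. The rises numbered 3 without KO/KO replicate 3, WT/WT replicate 2 or WT/WT replicate 3, and 1 gene was lower without KO/KO replicate 2.

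Cxcr4, the chemokine receptor, was low in both genotypes. It had 4.04, 3.02 and 3.88 CPM in KO/KO and 3.86, 3.59 and 4.53 CPM in WT/WT, with the ranges overlapping. The log2 fold change was -0.13 (95% interval -0.59 to 0.33, edgeR adjusted p = 0.720). Its ligand Cxcl12 fell to 2.19, 1.22 and 1.44 CPM in KO/KO, against 9.72, 11.2 and 9.85 CPM in WT/WT (log2 fold change -2.67, SE 0.24, edgeR adjusted p = 0.000252). The second Cxcl12 receptor, Ackr3, had 0.424, 0.405 and 0.915 CPM in KO/KO and 0.867, 1.2 and 1.42 CPM in WT/WT and did not pass (edgeR adjusted p = 0.149).

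Of 16 tested genes of Cxcl12 and Cxcr4 signalling 2 rose, 3 fell and 11 did not pass, with a median log2 fold change of -0.14. The receptor kinase Adrbk1, an older symbol of Grk2, rose by 0.54 (SE 0.09, edgeR adjusted p = 0.00539) and Grk5 by 0.52 on the log2 scale. Rgs16, which shuts off G protein signalling, was at 0.336 ± 0.188 CPM in KO/KO and 2.05 ± 0.696 CPM in WT/WT (SD, n = 3 each), and the G protein subunit Gnai1 fell by 1.00 on the log2 scale. Grk5 lost its call without WT/WT replicate 1 or 3 (edgeR adjusted p between 0.0905 and 0.0909), which left 1 rise, Gnai1 without WT/WT replicate 1 or 2 (edgeR adjusted p between 0.0650 and 0.0670), and 5 genes were lower without KO/KO replicate 3. Stromal cells of the testis also express Cxcl12. Of 14 peritubular myoid and stromal markers tested 3 fell and 11 did not pass, and their summed level was between 60.6 and 89.0 CPM in KO/KO and between 118 and 159 CPM in WT/WT. Col1a1 held 24.3 ± 6.05 CPM of it in KO/KO and 66.3 ± 10.3 CPM in WT/WT (SD, n = 3 each). Col1a2 and Col3a1 overlapped between genotypes, with log2 fold changes of -0.13 and -0.22. Pdgfrb was higher in every KO/KO library and did not pass (log2 fold change 1.12, edgeR adjusted p = 0.0814). The part of stromal cells, or of other cells such as Sertoli cells, in the fall of Cxcl12 was not tested.

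Levels of different genes were compared per kilobase of merged exons. In KO/KO the order was Mcam at 98.7 ± 21.5, Epcam at 27.5 ± 3.56, Cd9 at 16.9 ± 1.36, Cd81 at 10.1 ± 1.93, Cd2 at 7.56 ± 3.96, Cd82 at 4.14 ± 0.609, Cd24a at 3.10 ± 0.965, Cxcr4 at 2.02 ± 0.304 and Thy1 at 0.819 ± 0.208 CPM per kilobase (SD, n = 3). From Cd81 down to Cxcr4 the libraries of each gene overlapped with those of the next. In WT/WT the order was Mcam at 71.4 ± 2.44, Epcam at 26.0 ± 3.66, Cd9 at 12.8 ± 0.635, Cd81 at 11.1 ± 0.703, Cd82 at 3.79 ± 0.832, Cd24a at 2.87 ± 0.228, Cxcr4 at 2.21 ± 0.269, Thy1 at 0.645 ± 0.116 and Cd2 at 0.221 ± 0.0657 CPM per kilobase. There the overlap between neighbours was limited to Cd82 and Cd24a. Apart from Cd2, which was in place 9 in WT/WT and place 5 in KO/KO, the 8 other genes kept the same order in both genotypes.

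**Figure D3:**
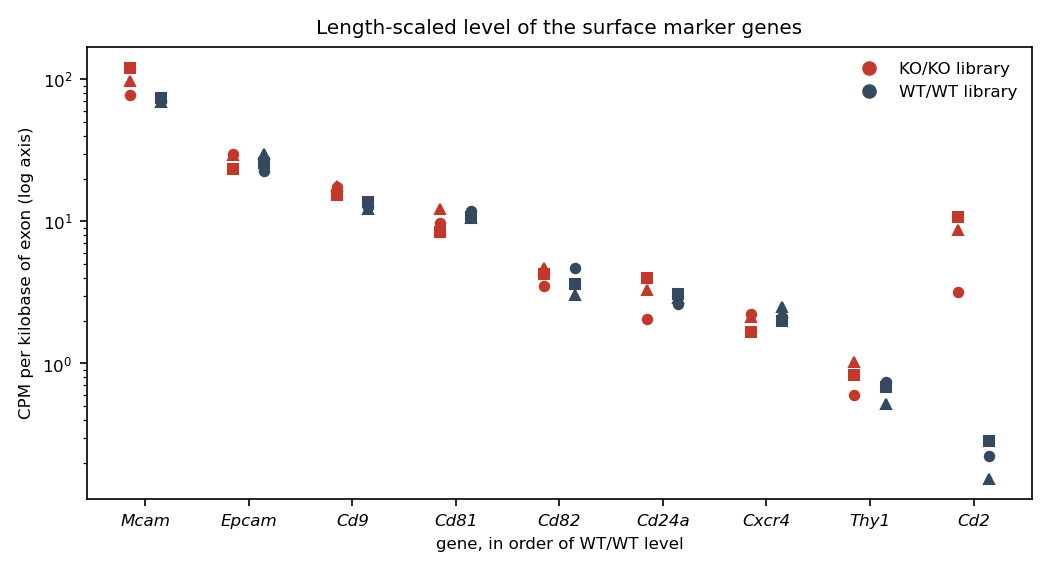
Level of each gene per kilobase of exon in CPM (log axis), KO/KO libraries left and WT/WT libraries right of each position, with genes ordered by WT/WT mean and symbols for replicate 1 (circle), 2 (square) and 3 (triangle). Mcam is highest in both genotypes, and Cd2 lies below 0.3 in WT/WT and above 3 in KO/KO.

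Cd2, an adhesion and costimulatory receptor of T and natural killer cells, was counted at low levels in WT/WT and was higher in every KO/KO library. It had 247, 932 and 974 reads in KO/KO, or 5.52, 18.9 and 15.1 CPM, and 17, 24 and 11 reads in WT/WT, or 0.388, 0.498 and 0.270 CPM. KO/KO replicate 1 was the lowest of its genotype and still far above every WT/WT library. The fitted log2 fold change of 5.07 was rank 26 among the rises of all 21314 genes, and it lay between 4.72 and 5.45 when any 1 library was left out. These values chose the gene and are a description.

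Ptprc, the pan-leukocyte surface gene, had 11, 10 and 1 reads in KO/KO and 5, 18 and 17 in WT/WT. The CD3 genes Cd3d, Cd3e and Cd3g together had 13, 26 and 38 reads in KO/KO and 33, 54 and 50 in WT/WT, nearly all from Cd3e. The coreceptors Cd4, Cd8a and Cd8b1 had 0 reads in every KO/KO library, which allows up to 3 reads per library, and between 0 and 3 in each WT/WT library. The B cell gene Ms4a1 had 1 read in each KO/KO library and 0 in each WT/WT library. Whether lymphocytes contributed to the Cd2 reads was not tested.

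Of 37 listed T, NK and B lymphocyte markers 11 had enough counts for a test, 4 rose and 7 did not pass, with a median log2 fold change of 0.61 and 3 of the 37 at 0 in all libraries. Among the 7, Cd3e was lower in every KO/KO library, at 0.290, 0.405 and 0.527 CPM against 0.730, 1.06 and 1.23 CPM in WT/WT. Its log2 fold change was -1.28 (SE 0.40, edgeR adjusted p = 0.0592). Tcf7, also among the 7, was higher in every KO/KO library (log2 fold change 0.31, edgeR adjusted p = 0.0524). The kinase Lck, which binds T cell coreceptors, had 4.85, 7.05 and 4.64 CPM in KO/KO and 2.08, 1.79 and 0.882 CPM in WT/WT (log2 fold change 1.79, SE 0.32, edgeR adjusted p = 0.00589). The adaptor Lat had 7.53, 10.3 and 11.1 CPM in KO/KO and 3.22, 5.52 and 3.85 CPM in WT/WT (log2 fold change 1.202, SE 0.24, edgeR adjusted p = 0.00936). Cd79a, of the B cell receptor, had 48, 94 and 47 reads in KO/KO and 14, 11 and 9 in WT/WT, and the T cell receptor constant gene Trac had 37, 36 and 57 reads in KO/KO and 0, 10 and 3 in WT/WT. With WT/WT replicate 3 left out 2 rose, since Cd79a and Trac lost their calls (edgeR adjusted p = 0.0538 and 0.0946), and with WT/WT replicate 2 left out Cd79a lost its call (edgeR adjusted p = 0.0604). Leaving out Tcf7, which made up most of the counts of the list, the summed level was 17.5, 26.9 and 23.0 CPM in KO/KO and 9.84, 12.2 and 10.2 CPM in WT/WT. In each KO/KO library Lck and Lat together made up most of this sum.

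**Figure D4:**
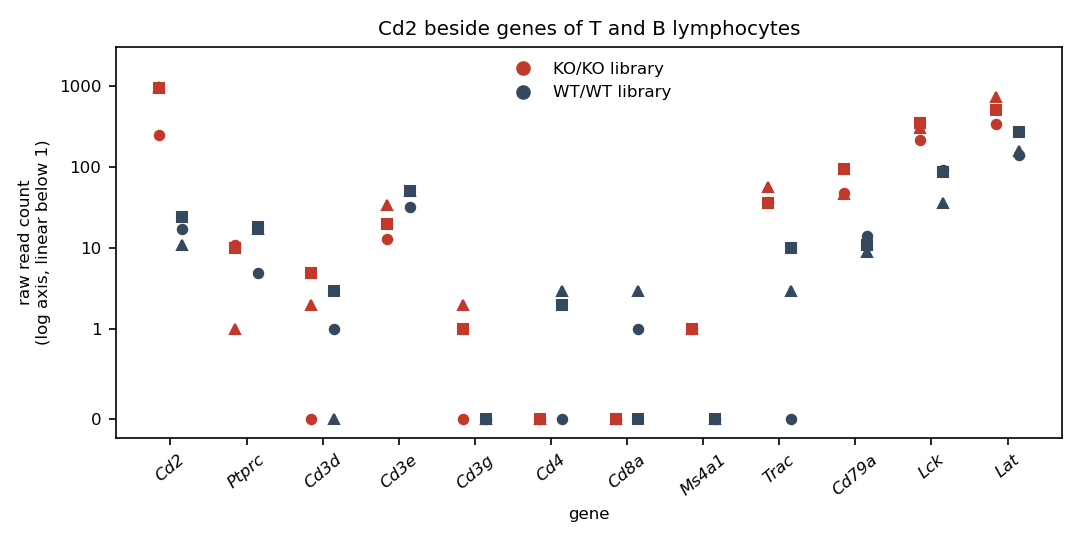
Raw reads of Cd2 and of 11 lymphocyte genes in each library (log axis, linear below 1), KO/KO libraries left and WT/WT libraries right of each position, with symbols for replicate 1 (circle), 2 (square) and 3 (triangle). Cd2 has 247 to 974 reads in KO/KO and 11 to 24 in WT/WT. The genotypes stand apart, with KO/KO above, for Trac, Cd79a, Lck and Lat, and overlap for Ptprc. Ms4a1 stands apart only by 1 read in each KO/KO library against 0 in each WT/WT library.

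The partners of Cd2 gave a short list. Its mouse ligand Cd48 had 2, 1 and 5 reads in KO/KO and 0, 3 and 3 in WT/WT and was not tested. Of 6 ligand, relative and adaptor genes tested 2 rose and 4 did not pass, with a median log2 fold change of -0.08. These were Lck and the cytoskeletal adaptor Pstpip1, which binds the tail of Cd2, at 6.30, 7.24 and 9.49 CPM in KO/KO and 3.45, 3.86 and 3.16 CPM in WT/WT (log2 fold change 1.14, SE 0.20, edgeR adjusted p = 0.00600). Cd2ap and Cd2bp2, which also bind its tail and are used by many cell types, stood at 150 ± 7.60 and 52.3 ± 7.27 CPM in KO/KO and 173 ± 0.639 and 58.2 ± 0.810 CPM in WT/WT (SD, n = 3 each), and neither passed.

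Cd2 lies on chromosome 3 (positions 101275899 to 101287939, GRCm38) among genes of the EWI immunoglobulin family, whose proteins bind tetraspanins. Of the 5 tested genes reported here within 500 kb, 2 rose, and Trim45, Ttf2 and Ptgfrn did not pass. Cd101, an EWI gene also known from lymphoid and myeloid cells, had 20, 42 and 44 reads in KO/KO and 1, 2 and 0 in WT/WT, a ratio of 29.6 with a counting interval of 9.85 to 146 (edgeR adjusted p = 0.00326). Igsf3, the nearest tested gene on the far side, had 183, 202 and 180 CPM in KO/KO and 148, 137 and 151 CPM in WT/WT (log2 fold change 0.37, SE 0.08, edgeR adjusted p = 0.0132). Without WT/WT replicate 1 or 2 its call was lost (edgeR adjusted p between 0.0515 and 0.0911). Ptgfrn, the nearest tested gene on the other side and a known Cd9 and Cd81 partner, had 45.5, 49.4 and 54.5 CPM in KO/KO and 48.1, 45.4 and 50.6 CPM in WT/WT (edgeR adjusted p = 0.771).

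**Figure D5:**
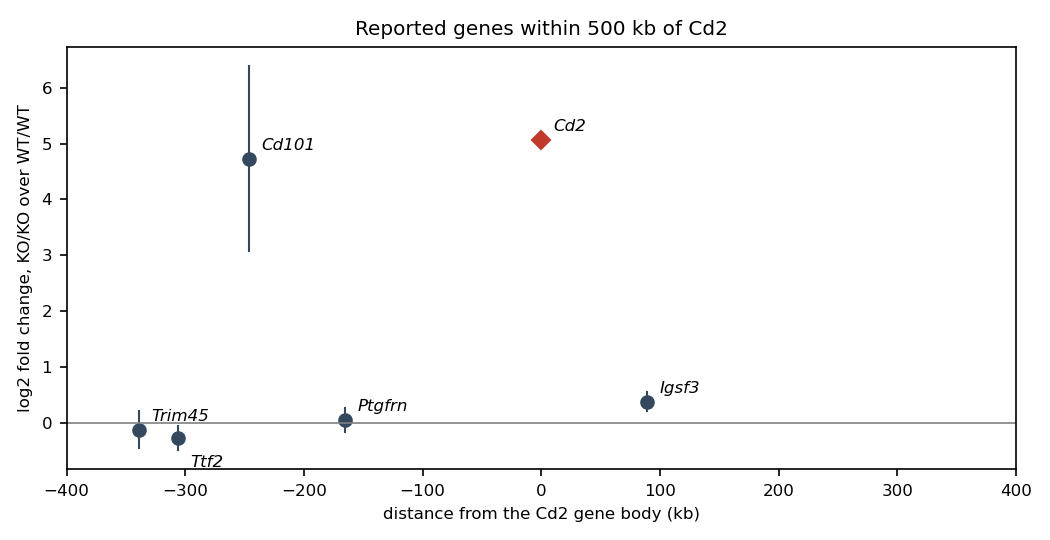
Log2 fold change of KO/KO over WT/WT for Cd2 (diamond) and 5 tested genes within 500 kb, against distance from the Cd2 gene body in kb, with 95% intervals for the 5. Cd101 has a log2 fold change near 5, as Cd2 does, and the other 4 lie within 0.5 of 0.

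The 5 genes whose log2 CPM followed that of Cd2 most closely over the 6 libraries, among 11660 candidates whose average log2 CPM reached 1, were Myo1e, Med14, Ppp1r18, Dusp4 and Sec14l1. Pearson's r was 0.9997, 0.9992, 0.9986, 0.9985 and 0.998 (n = 6 libraries, log2 of CPM plus 0.5), with Spearman's rho of 1 for the first 4 and 0.943 for Sec14l1. The libraries fall into the genotypes, so any gene with the same order of KO/KO libraries scores high. Dusp4, a phosphatase that limits ERK signalling, stood at 16 ± 5.95 CPM in KO/KO and 3.24 ± 0.277 CPM in WT/WT, and Myo1e, an unconventional myosin, at 69.4 ± 16.3 CPM in KO/KO and 23.7 ± 1.47 CPM in WT/WT (SD, n = 3 each).

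Of 16 other tested antigens used or proposed to sort spermatogonia 7 rose, 2 fell and 7 did not pass, with a median log2 fold change of 0.52, and the difference from the 8 markers above was not tested. The GDNF receptor genes Gfra1 and Ret had log2 fold changes of 1.01 (SE 0.13) and 0.80 (SE 0.10, edgeR adjusted p = 0.00127 for both), and Cdh1 is given above. The laminin receptor subunit Itga6, the classic positive marker, had 148, 157 and 145 CPM in KO/KO and 119, 118 and 110 CPM in WT/WT (log2 fold change 0.38, SE 0.08, edgeR adjusted p = 0.0101), whereas its partner Itgb1 overlapped, at 142 ± 12.7 CPM in KO/KO and 154 ± 10.5 CPM in WT/WT. Itgav, whose protein marks cells depleted in stem cell sorts, averaged 43.6 ± 6.2 CPM in KO/KO and 21.3 ± 1.87 CPM in WT/WT with no overlap (SD, n = 3 each; log2 fold change 1.04, SE 0.13, edgeR adjusted p = 0.00115). Kit, the receptor of differentiating spermatogonia used for negative selection, was at 38.6, 5.63 and 8.44 CPM in KO/KO and 118, 98.9 and 150 CPM in WT/WT (edgeR adjusted p = 0.0129). Cd44 fell at low counts, with 13, 16 and 21 reads in KO/KO and 56, 34 and 39 in WT/WT, and lost its call without WT/WT replicate 1 or 3 (edgeR adjusted p between 0.0769 and 0.117), which left 1 fall. Itga6 lost its call without WT/WT replicate 2 or 3 (edgeR adjusted p between 0.0571 and 0.0594).

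Markers of the cells the gate could hold are given as counts, beside shares over all genes tested of 8.33% higher and 6.42% lower. Of 19 undifferentiated germ cell genes 6 rose and 4 fell, with 2 falls without any 1 WT/WT replicate and 3 rises without WT/WT replicate 3, and of 12 genes of differentiating spermatogonia 1 rose and 8 fell. Of 17 Sertoli cell markers 1 rose (2 without KO/KO replicate 1 or 2, 0 without WT/WT replicate 2 or 3), and their summed level overlapped, at 1380 to 1830 CPM in KO/KO and 1220 to 1600 CPM in WT/WT. Of 4 macrophage and myeloid markers tested 2 rose and 1 fell (1 rise without KO/KO replicate 2 or 3, 1 rise and 0 falls without any 1 WT/WT replicate), and of 4 erythroid and platelet markers 1 rose (2 without KO/KO replicate 1, 0 without KO/KO replicate 3 or any WT/WT replicate). The 4 Leydig cell markers tested did not pass with all libraries. Leaving out KO/KO replicate 3 gave 2 falls, and leaving out WT/WT replicate 1 gave 1.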

How the data were processed

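The deposited files hold raw counts per gene and per transposable element family. The submitters' processing notes name STAR 2.7.0a, featureCounts 1.5.1 and the mm10 build. RNA came from a PicoPure extraction with DNase and a SMARTer stranded total RNA kit, per the labels' protocols. The annotation, strand setting and treatment of multi-mapping reads, not given in the sources used here, could change single genes. The 1205 element rows, between 14.1% and 15.5% of counts, were left out of totals and tests. A further tested gene near Cd2 and a lymphocyte gene are not reported here.

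Genes were tested with edgeR 4.0.16 (R 4.3.3; quasi-likelihood F test, TMM factors, filterByExpr, two-sided, Benjamini-Hochberg over all 21314 genes, threshold 0.05) and the method was tested on simulated data. The standard error was derived as the log2 fold change over the square root of F. Positions and exon lengths came from GENCODE M21 (GRCm38, the assembly of mm10). Alternatives were RLE factors, other filters, DESeq2 1.42.0, limma-voom (limma 3.58.1), a replicate block, element rows in library sizes, and leaving out each library. Intervals and floors of 3 reads on counts cover counting error only. Figures used matplotlib 3.10.9.

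The members and the 16 gene lists were chosen with earlier results of these data known. Named are the 9 members, up to 4 genes per list with the smallest p, called and nearest genes around Cd2, and the 5 genes closest to Cd2; any further gene was named with its values in view.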

Additional observations from a re-analysis of the deposited data

How the results depend on the processing

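No called result changed sign under the alternatives run; among markers that did not pass, leaving out 1 library gave log2 fold changes from -0.10 to 0.34 for Cd24a, -0.02 to 0.19 for Epcam and -0.01 to 0.31 for Cd82. The same held for other genes that did not pass, from -0.02 to 0.06 for Cd151, -0.04 to 0.05 for Tspan3 (0.00 with no filter), 0.00 to 0.12 for Ptgfrn, -0.06 to 0.44 for Pecam1 and -0.23 to 0.00 for Trim45. The 2 rises among the 8 tested markers became 1 with limma-voom and 1 with the replicate block, and between 0 and 1 when a single library was left out. Over all genes the 1776 rises and 1368 falls ranged from 814 to 1985 and from 560 to 1380 when a single library was left out, with the low ends without a WT/WT library. The genes of all lists outside the 9 markers gave 39 rises and 24 falls, beside shares of 8.33% higher and 6.42% lower over all genes tested. Leaving out 1 library gave between 23 and 43 rises and between 17 and 28 falls. With no filter on low counts there were 49 rises and 39 falls. Around Cd2 there was 1 rise with a minimum of 1 CPM in 3 samples, which removes Cd101, and between 1 and 2 with 1 library left out. Whether the label numbers pair the samples was not settled. Deviations from the genotype means correlated at -0.126, 0.0499 and 0.0579 for same-numbered libraries, and they did not each correlate best with their own number. With 3 libraries per genotype such correlations cannot exclude a pairing. With the replicate block 1467 genes rose and 1107 fell, and the adjusted p was 0.0747 for Cd9 and 0.0350 for Mcam. RLE factors moved the median log2 fold change of all genes to 0.006 from 0.003. With 3 libraries per genotype the widest interval among the tested markers, that of Thy1, spans folds from 0.833 to 1.94.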
